A study of Homo sapiens with 8 samples.

Results

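Keratins are the intermediate filament proteins of epithelial cells, and 10 keratin genes were followed here through an AGO2 RIP-chip experiment in A431 cells, an established human cutaneous squamous cell carcinoma (cSCC) line. The genes were KRT5, KRT14, KRT6A, KRT6B, KRT16, KRT17, KRT7, KRT8, KRT18 and KRT19. They were found through the RefSeq accessions of their probes, and they are 10 of the 22439 gene symbols on the array. All 10 were measured, among 10959 measured genes, and 14 probes represented them. Cells of every group were transfected with a microRNA at 10 nM, either the negative control miR-NC or miR-634, and were lysed 24 h later. From each kind of cell, RNA bound to AGO2 was recovered with an anti-AGO2 antibody (RIP), and total RNA served as the input. Input and RIP of either transfection made up 4 groups (input and RIP of miR-NC cells, input and RIP of miR-634 cells), with 2 one-color arrays each. The paper's methods call the input total RNA, whereas the sample labels name normal rabbit IgG as the antibody of the input arrays. As a model, A431 is 1 cell line, and the sources do not say whether the duplicates were separate transfections, so a p value measures only the spread between these arrays.

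Each keratin filament is assembled from pairs of an acidic type I keratin and a basic type II keratin. KRT5 (type II) and KRT14 (type I) are the pair of the basal layer of stratified epithelia. KRT6A and KRT6B (type II) with KRT16 and KRT17 (type I) are known as keratins of wounded, hyperproliferative and cancerous epidermis. KRT8 (type II) and KRT18 (type I) are the pair of simple epithelia, where KRT7 (type II) and KRT19 (type I) also occur, and squamous carcinomas can express them beside the stratified types. AGO2 is the protein that carries a microRNA to its target mRNAs, and the pairing rests mainly on the seed, bases 2 to 8 of the microRNA. The comparison of RIP with input therefore asked which mRNAs gained or lost association with AGO2 when miR-634 was added. The mature sequence of miR-634 from RefSeq is shown because it is the agent that separates the groups, with the seed in capitals.
hsa-miR-634: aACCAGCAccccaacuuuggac
It lies on chromosome 17 at chr17:66787132-66787153 on the plus strand of GRCh38.p14, within PRKCA, and an mRNA that pairs with its whole seed holds the letters UGCUGGU. Keratin mRNA and probe sequences were not used here, so no keratin was searched for these letters.

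The level of a gene is given as the log2 intensity of its brightest probe minus the 75th percentile of the same array, so a level of 0 lies at that percentile. Levels of different keratins come from different probes and were not ranked against each other. The enrichment is the difference of the RIP and the input level (log2 RIP/input), and the fold change of enrichment is the enrichment in miR-634 cells relative to that in miR-NC cells. On the input arrays 45.6% to 45.8% of spots were well above background, compared with 40.0% on both RIP arrays of miR-634 cells and 33.6% and 34.5% on those of miR-NC cells. The median SD of a gene between replicates was 0.04 to 0.06 on the log2 scale (n = 2 arrays in each group). All arrays shared 1 slide and 1 scan, and the groups lay at fixed positions on it, so position and group cannot be told apart. The scale of the RIP arrays depended on the normalization. Scaling to the spike-in RNA in place of the percentile moved the median fold change of enrichment of all genes from -0.22 to 0.87 on the log2 scale and the median RIP change from -0.18 to 0.68. Fold changes of enrichment are therefore also given relative to the median gene, with all 10 side by side in the comparison across the keratins, which that scaling does not alter. SLC1A5, the target on which the study centers, had a fold change of enrichment of 7.04 and served as a yardstick. The study chose it as a target partly on these arrays, so its high value is a scale and not independent evidence.

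KRT18 showed the widest change of the 10 keratins. Its log2 level was 4.65 and 4.66 on the miR-NC input arrays and 4.77 and 4.76 on the miR-634 input arrays. On the RIP arrays it was 6.12 and 6.12 in miR-NC cells but 4.03 and 4.10 in miR-634 cells. The miR-NC RIP arrays were thus the highest of the 8 and the miR-634 RIP arrays the lowest, with the input arrays between them and no overlap of the RIP groups. Relative to the percentile, KRT18 was enriched 2.76-fold in miR-NC cells (log2 1.47 ± 0.04, SE, adjusted p = 1.00e-06, limma) and was at 0.615 of its input in miR-634 cells (log2 -0.70 ± 0.04, adjusted p = 7.93e-06). With spike-in scaling both enrichments were below 0, at -1.07 without and -2.15 with miR-634. The fold change of enrichment was 0.223 (log2 -2.17, 95% confidence interval -2.32 to -2.02, adjusted p = 1.24e-06). Only 0.703% of all measured genes had a lower value. The fall came from the RIP, where KRT18 decreased by 2.06 on the log2 scale (adjusted p = 2.43e-07), whereas its input change of 0.11 did not pass the test (adjusted p = 0.130). KRT18 remained lower under the spike-in scaling too, at -1.08 for the fold change of enrichment.

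KRT8, the filament partner of KRT18, did not follow it in size. Its level was 2.0 and 2.03 in the miR-NC input, 2.02 and 2.03 in the input of miR-634 cells, 2.43 and 2.43 in the miR-NC RIP, and 2.12 and 2.25 in the miR-634 RIP. Both RIP groups lay above the inputs, and the miR-634 RIP arrays lay between the inputs and the miR-NC RIP arrays. The fold change of enrichment was 0.841 (log2 -0.25, 95% confidence interval -0.44 to -0.06, adjusted p = 0.0254, limma), and the interval did not overlap that of KRT18. KRT8 lay at -0.03 relative to the median gene and turned to 0.83 with spike-in scaling. The call was also lost when any of 6 of the 8 arrays (all input and miR-NC RIP arrays) was left out, with values from -0.26 to -0.24. The input change of KRT8 was 0.01 (95% confidence interval -0.12 to 0.14).

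KRT7 and KRT19, the other simple epithelial keratins, did not pass the test for the fold change of enrichment. KRT7 had levels of 2.44 and 2.41 in the miR-NC input, 2.26 and 2.33 in the input of miR-634 cells, 2.66 and 2.64 in the miR-NC RIP, and 2.41 and 2.47 in the miR-634 RIP. The miR-634 arrays were lower than the miR-NC arrays in both fractions, so the ratio moved little (fold change of enrichment 0.946, adjusted p = 0.327). Its log2 value of -0.08 had a 95% confidence interval from -0.24 to 0.08. KRT19 was dim, with levels of -2.54 and -2.86 in the miR-NC input, -3.07 and -3.04 in the input of miR-634 cells, -3.28 and -3.16 in the miR-NC RIP, and -3.50 and -3.52 in the miR-634 RIP. Its miR-NC input arrays differed by more than those of any other of the 10 keratins (SD 0.23, n = 2), which widened the interval of its fold change of enrichment to between -0.29 and 0.43 around 0.07. Without miR-NC input replicate 1 that value turned to -0.09. The input change of KRT19 was -0.36 (adjusted p = 0.0541), and it was called without miR-NC input replicate 2, at -0.52. In the RIP, KRT19 decreased by 0.29 (adjusted p = 0.0426), a call that was lost in 13 of 20 alternative settings, 5 of them with an array left out (-0.30 to -0.22), and turned to 0.58 with spike-in scaling.

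KRT14 rose relative to its input, and KRT5, its partner in the basal layer, did not. KRT5 had levels of 3.23 and 3.24 in the miR-NC input, 3.19 and 3.23 in the input of miR-634 cells, 3.21 and 3.26 in the miR-NC RIP, and 2.98 and 3.08 in the miR-634 RIP. Only the miR-634 RIP arrays stood below the rest. Its fold change of enrichment was 0.877 and did not pass the test (log2 -0.19, adjusted p = 0.0610), and it lay 0.03 above the median gene. Without miR-634 RIP replicate 2 it was called lower, at -0.24 (adjusted p = 0.0240). KRT14 had levels of 1.88 and 1.89 in the miR-NC input, 2.0 and 2.07 in the input of miR-634 cells, 1.66 and 1.71 in the miR-NC RIP, and 2.09 and 2.22 in the miR-634 RIP. The RIP arrays were below the inputs in miR-NC cells, whereas in miR-634 cells the enrichment of 0.12 did not pass the test (adjusted p = 0.0938). The fold change of enrichment of KRT14 was 1.25 (log2 0.32, 95% confidence interval 0.12 to 0.52, adjusted p = 0.0127). The intervals of KRT5 and KRT14 did not overlap. KRT14 rose by 0.47 in the RIP (adjusted p = 0.000372), and its input change was 0.15 (adjusted p = 0.121).

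**Figure D1:**
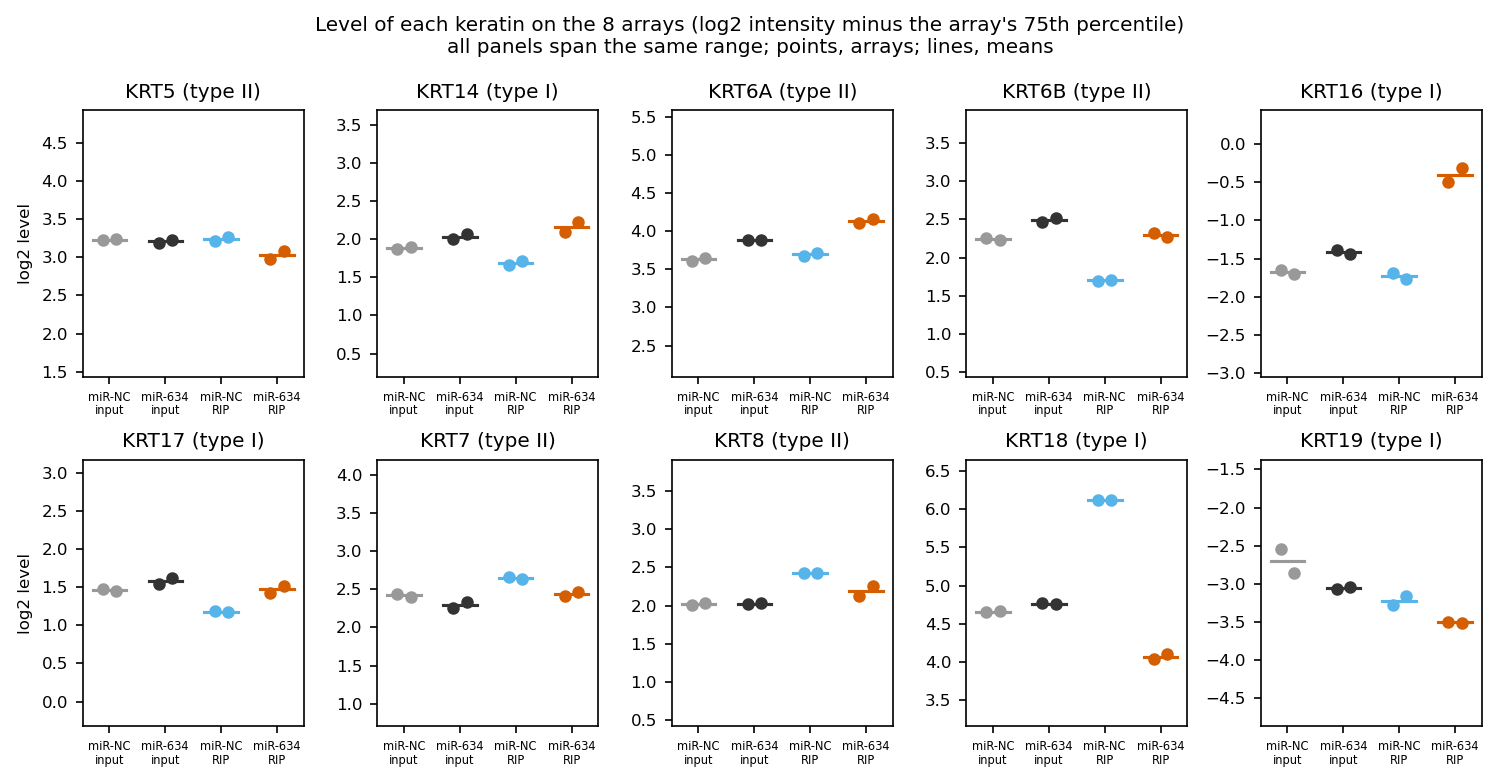
Level of each keratin on the 8 arrays, as log2 intensity minus the 75th percentile of the array (vertical axis, each panel spanning the same range), by group (horizontal axis); points are arrays and lines are group means. The miR-634 RIP arrays are the lowest for KRT18 (4.03 and 4.10) and the highest for KRT16 (-0.50 and -0.31).

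KRT16 showed the largest rise among the brightest probes of the 10 keratins. Its level was -1.65 and -1.70 in the miR-NC input, -1.39 and -1.44 in the input of miR-634 cells, -1.69 and -1.77 in the miR-NC RIP, and -0.50 and -0.31 in the miR-634 RIP. The miR-634 RIP arrays stood far above the other 6. The fold change of enrichment was 2.09 (log2 1.06, 95% confidence interval 0.81 to 1.31, adjusted p = 0.000158, limma), and 87.7% of all measured genes had a lower value. It remained a rise under all 20 alternative settings, from 0.92 to 2.14 on the log2 scale. In miR-NC cells the enrichment of KRT16 was -0.05 (adjusted p = 0.526), and in miR-634 cells the RIP was 2.01-fold above the input. With spike-in scaling this last value was instead below 0, at -0.44. KRT16 also rose 1.20-fold in the input (adjusted p = 0.0460), compared with a 2.51-fold rise in the RIP (adjusted p = 7.92e-06). The input call of KRT16 was lost without any of the 4 input arrays, with log2 values from 0.24 to 0.29, and in 10 of the 20 alternatives in all. With spike-in scaling the input change was 0.05 (adjusted p = 0.900).

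KRT6A and KRT6B, the type II partners of KRT16 and KRT17, rose in both fractions. KRT6A had levels of 3.61 and 3.65 in the miR-NC input, 3.88 and 3.89 in the input of miR-634 cells, 3.68 and 3.72 in the miR-NC RIP, and 4.11 and 4.15 in the miR-634 RIP. KRT6B had levels of 2.25 and 2.23, 2.46 and 2.52, 1.70 and 1.71, and 2.32 and 2.27 in the same order of groups. For both genes the miR-634 arrays were above the miR-NC arrays of the same fraction without overlap. The input change was 0.25 for KRT6A (adjusted p = 0.0109) and 0.25 for KRT6B (adjusted p = 0.0121), and the RIP change was 0.44 and 0.59. The input call of KRT6A was lost without any of the 4 input arrays (0.23 to 0.28), and that of KRT6B without 3 of them (0.22 to 0.26), all but miR-634 input replicate 1. With spike-in scaling the input changes were 0.04 and 0.03. The fold change of enrichment was 1.26 for KRT6B (log2 0.34, adjusted p = 0.00339) and 1.13 for KRT6A (log2 0.18, adjusted p = 0.0397). KRT6B kept this call under all 20 alternatives. KRT6A kept it under 10, and lost it without 6 of the 8 arrays (0.16 to 0.20), all but miR-NC RIP replicate 2 and miR-634 RIP replicate 1.

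KRT17 rose in the RIP. Its levels were 1.48 and 1.45 in the miR-NC input, 1.55 and 1.62 in the input of miR-634 cells, 1.18 and 1.17 in the miR-NC RIP, and 1.43 and 1.51 in the miR-634 RIP. The RIP groups were well separated, and the RIP change was 0.29 (adjusted p = 0.00180, limma). Its input change was 0.12 (adjusted p = 0.141) and its fold change of enrichment was 1.13 (log2 0.17, adjusted p = 0.0690), neither of which passed the test. Without miR-634 RIP replicate 1 the fold change of enrichment was called, at 0.22 on the log2 scale (adjusted p = 0.0397).

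**Figure D2:**
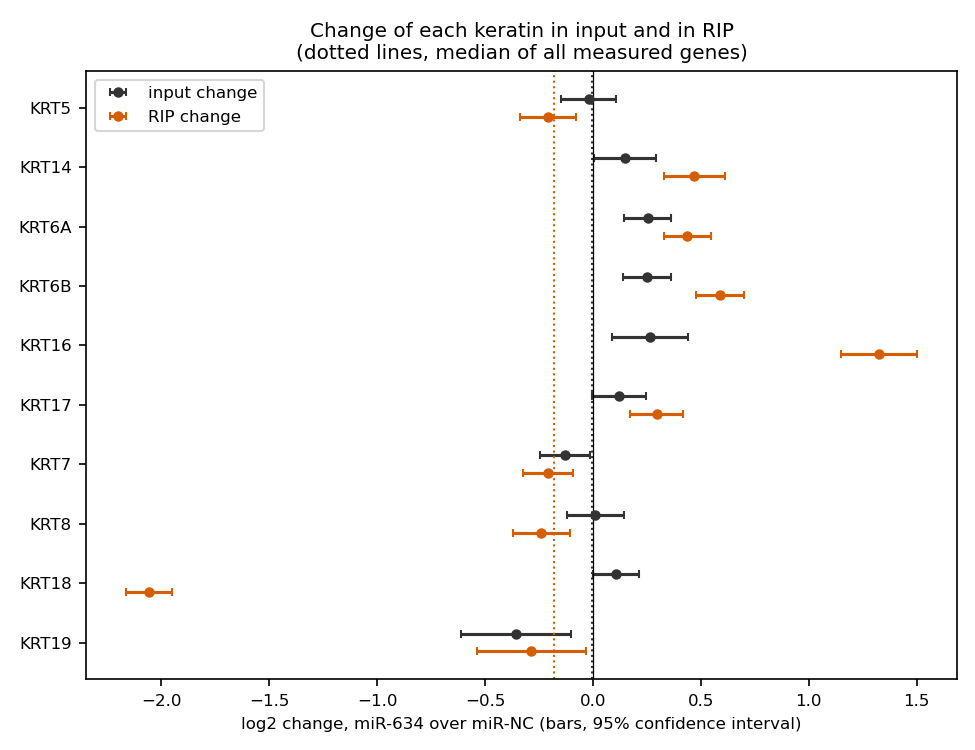
Change of each keratin between miR-634 and miR-NC cells on the log2 scale (horizontal axis) in the input and in the RIP, with 95% confidence intervals as bars and the medians of all measured genes as dotted lines. KRT18 (-2.06) and KRT16 (1.33) stand apart in the RIP, whereas the input changes lie between -0.36 and 0.26.

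Across the 10 keratins, the fold change of enrichment was higher for 4 genes (KRT14, KRT6A, KRT6B and KRT16) and lower for 2 (KRT8 and KRT18). Of all measured genes, 28.1% were called higher and 43.2% lower (71.3% in all), so being called did not set the keratins apart. Their median was 0.12, or 0.34 above that of all genes. Relative to the median gene, the fold change of enrichment was 1.28 for KRT16, 0.55 for KRT6B, 0.54 for KRT14, 0.40 for KRT6A and 0.39 for KRT17. It was 0.29 for KRT19, 0.14 for KRT7, 0.03 for KRT5, -0.03 for KRT8 and -1.95 for KRT18, so 8 of the 10 lay above the median gene. All 4 keratins called higher were among the 6 stratified types, whose median was 0.25, or 0.47 above that of all genes. The median of the 4 simple types was -0.16, or 0.05 above that of all genes, and the 2 keratins called lower were among them. In the input, 3 of the 10 keratins were called higher (KRT6A, KRT6B and KRT16) and 0 lower by limma, against 11.6% and 12.1% of all measured genes (23.7% in all). At an unadjusted p under 0.05, 5 were higher and 2 lower, but the shares above do not apply at that threshold, where all genes were not counted. A lower level per cell and a smaller share of cells with a given keratin cannot be told apart in such bulk RNA. In the RIP, all 10 were called, 5 higher and 5 lower, against 30.9% and 46.5% of all genes (77.4% in all). The 5 that rose were KRT14, KRT6A, KRT6B, KRT16 and KRT17, and each of these rises was kept under all 20 alternatives. The 5 that fell, by their brightest probes, were KRT5, KRT7, KRT8, KRT18 and KRT19. Of these, KRT5, KRT7 and KRT8 fell by 0.21, 0.21 and 0.24, which was -0.03, -0.03 and -0.06 relative to the median gene. These 3 and KRT19 turned to rises of 0.58 to 0.65 with spike-in scaling, so KRT18 alone of the 10 was lower under each scaling that was run.

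The RIP and input levels of the keratins also compared differently within each kind of cell. By the brightest probes, the RIP of miR-NC cells was above the input for KRT7 (1.17-fold), KRT8 (1.33-fold) and KRT18. It was below the input for KRT14 (0.871), KRT6B (0.690), KRT17 (0.819) and KRT19 (0.697). These were 3 higher and 4 lower of 10, against 33.5% and 45.3% of all measured genes (78.8% in all). KRT5, KRT6A and KRT16 did not pass the test, with log2 enrichments of 0.005, 0.07 and -0.05. In miR-634 cells 4 keratins were higher in the RIP (KRT6A, KRT16, KRT7 and KRT8) and 4 lower (KRT5, KRT6B, KRT18 and KRT19), against 36.1% and 48.3% of all genes (84.4% in all). With spike-in scaling all 10 were lower in the RIP than in the input in both kinds of cells. KRT18 was the only one of the 10 called on opposite sides in the 2 kinds of cells.

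**Figure D3:**
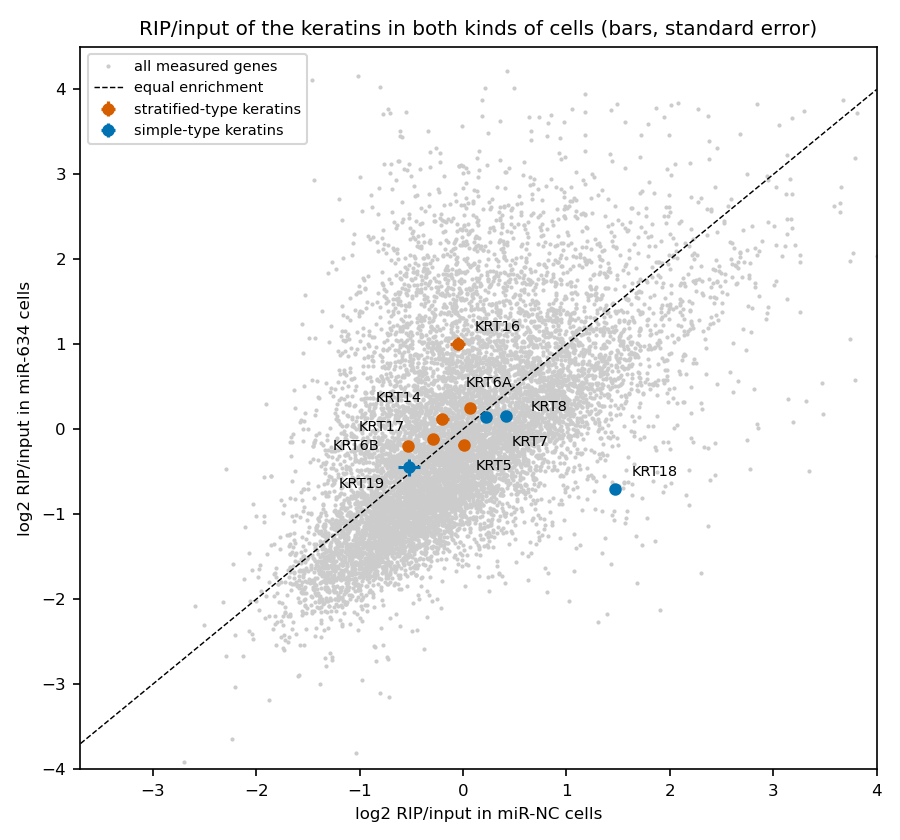
Enrichment (log2 RIP/input, scaled to the 75th percentile) in miR-NC cells (horizontal axis) and in miR-634 cells (vertical axis), with standard errors as bars; gray points are all measured genes and the dashed line marks equal enrichment. KRT18 lies far below the line (1.47 and -0.70) and KRT16 above it (-0.05 and 1.01), while the other 8 lie near it.

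More than 1 probe was measured for KRT14, KRT8 and KRT18, and these probes did not give 1 answer. In the fit over all 16808 probes, 68.4% of probes were called for the fold change of enrichment. Both KRT18 probes fell, by 2.17 for the brightest and by 1.92 for the other, A_24_P42136 (adjusted p = 0.000739). The level of the latter was 4.06 and 3.45 in the RIP of miR-NC cells but 1.85 and 1.97 in that of miR-634 cells, so its replicates differed but the RIP groups did not overlap. For KRT14, the dimmer probe A_21_P0011517 rose far more than the brightest, by 1.24 compared with 0.32 (adjusted p = 6.89e-05), although both carry the accession NM_000526. Its levels were -0.97 and -0.94 in the miR-NC RIP and 0.25 and 0.35 in the miR-634 RIP, with inputs between -0.63 and -0.51 in both kinds of cells. For KRT8, the brightest probe fell by 0.25 (adjusted p = 0.0313), and A_33_P3372368, which carries the noncoding accession NR_045962, fell by 0.89 (adjusted p = 0.000140). The third KRT8 probe, A_24_P67395, shares the accession NM_002273 with the brightest but was dim, and its value was 0.22 (adjusted p = 0.0761). The size of the change of KRT14 and of KRT8 thus depended on the probe, whereas KRT18 fell with both of its probes.

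**Figure D4:**
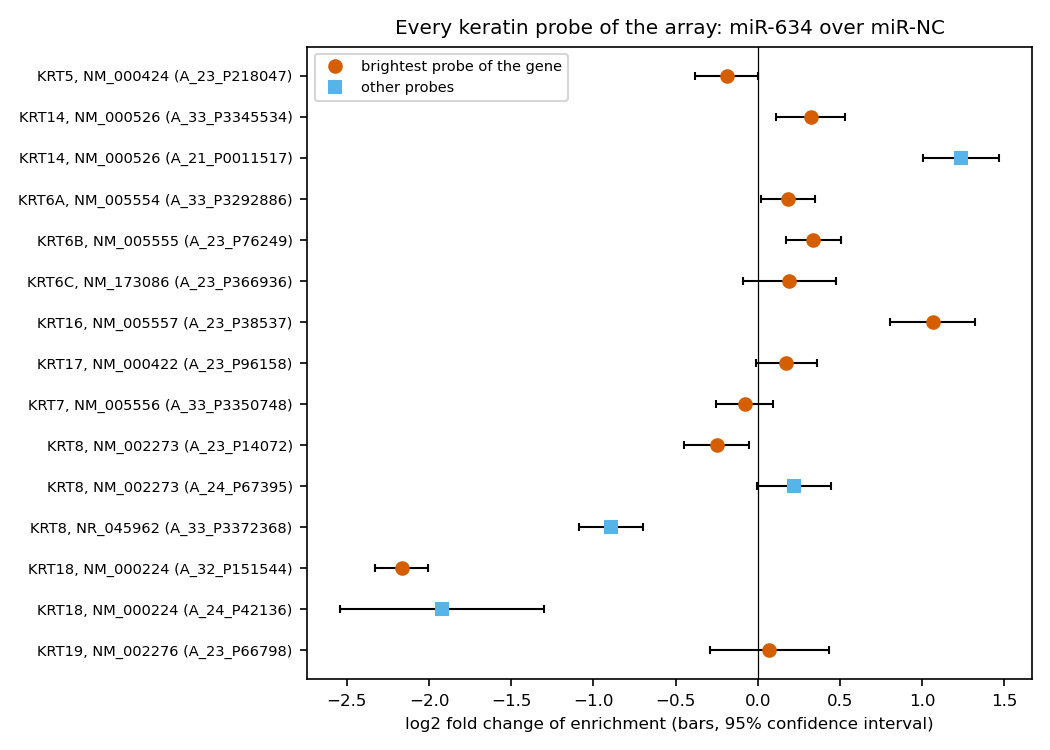
Log2 fold change of enrichment (horizontal axis) of every measured probe of the 10 keratins and of their paralog KRT6C, with 95% confidence intervals as bars; circles are the brightest probe of a gene and squares the others. The KRT14 probes lie at 0.32 and 1.24, the KRT8 probes between -0.89 and 0.22, and the KRT18 probes at -2.17 and -1.92.

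Several of these genes have close copies whose mRNA may bind the same probes. KRT6A, KRT6B and KRT6C are nearly identical, and the single probe of KRT6C, with a RIP change of 0.48 and an input change of 0.29, had values close to those of KRT6A and KRT6B. The signals of these 3 genes are thus uncertain as to which gene they belong. The RefSeq gene table lists 68 pseudogenes named after KRT18, 52 after KRT8, 8 after KRT17, 6 after KRT16 and 5 after KRT19, and KRT14, KRT16 and KRT17 are themselves close in sequence. In that table KRT18 overlaps KRT8, and KRT7 overlaps KRT7-AS, KRT87P and TMT1AP1. KRT5, KRT6A, KRT6B, KRT7, KRT8 and KRT18 lie on chromosome 12, and KRT14, KRT16, KRT17 and KRT19 on chromosome 17. In the fold change of enrichment, KRT18 fell and KRT6B rose, both on chromosome 12, and a part of gene position was not tested.

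Across the 8 arrays, which include both fractions and are not independent samples of 1 kind, KRT14 was not among the genes most like KRT5, nor KRT18 among those most like KRT8. The genes with the pattern most like KRT5 were TMEM231, APOBEC3C and TRIM52-AS1 (Pearson r = 0.982, 0.981 and 0.980), and KRT14 ranked 8704 of 10958 genes (r = -0.638). For KRT8 they were LHB, ETV7 and ZNF574 (r = 0.993, 0.990 and 0.990), and KRT18 ranked 2168 (r = 0.701). Among the 10 keratins, KRT6B and KRT17 had the closest patterns (r = 0.979). KRT6A and KRT16, also a type II and a type I keratin, had an r of 0.946. With 4 group means behind the 8 arrays, high values are common, and 439 genes had an r over 0.95 with KRT8.

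Other keratins moved in both directions. For these and the lists that follow, the counts stand against 28.1% higher and 43.2% lower among all measured genes in the fold change of enrichment. With spike-in scaling, 7347 of all 10959 genes were higher and 193 lower. Of 12 further type I keratins, 5 were measured, of which 2 rose and 3 fell in the fold change of enrichment. KRT15, a keratin of basal cells, had levels of 4.62 and 4.60 in the miR-NC RIP and 5.44 and 5.47 in the miR-634 RIP, while its input fell from 4.92 and 4.90 to 4.40 and 4.45. Its fold change of enrichment was 1.33 on the log2 scale (adjusted p = 6.43e-06, limma). KRT13, a keratin of the oral mucosa and esophagus, rose by 1.18. KRT10, the keratin of the suprabasal epidermis, fell by 0.82, with levels of 0.95 and 1.02 in the miR-NC RIP and 0.29 and 0.10 in the miR-634 RIP. KRT23 and KRT9 fell by 0.93 and 0.70, although the RIP change of KRT9 (-0.22) was not called (adjusted p = 0.111). Of these 5 genes, the falls of KRT10, KRT23 and KRT9 were not called with spike-in scaling, where 2 genes were higher and 0 lower. Of 15 further type II keratins, 6 were measured, and only KRT4 was called (-0.31, adjusted p = 0.0101). KRT1, the partner of KRT10, was well above background on 4 of the 8 arrays and was not tested.

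The structures that hold keratin filaments showed no common direction. Of 13 measured desmosome and anchoring genes, 2 had a higher and 7 a lower fold change of enrichment, against 28.1% and 43.2% of all genes, with a median of -0.05 relative to that of all genes. PKP2, PPL and DSC2 fell by 0.79, 0.62 and 0.55, and PKP4 rose by 0.62. PPL did not fall in the RIP (0.05, adjusted p = 0.465, limma), and its input rose by 0.67 (adjusted p = 0.00108). For DSC2 neither the RIP change of -0.22 nor the input change of 0.32 was called. Of 8 measured hemidesmosome genes, 2 were higher and 3 lower, with a median 0.04 above that of all genes. CD151, a tetraspanin of the hemidesmosome, rose by 1.06, with a RIP change of 1.02 and an input change of -0.05 (adjusted p = 0.461). PLEC, the linker of keratins to integrins, fell by 0.43 in the fold change of enrichment but not in the RIP (0.03, adjusted p = 0.715, limma). Its input rose by 0.46 (adjusted p = 0.00719). That input call was lost without miR-NC input replicate 1 (0.42) or miR-634 input replicate 2 (0.43). With spike-in scaling 9 desmosome and 8 hemidesmosome genes were higher and 0 lower, against 7347 and 193 of all 10959 genes.

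Genes of the cornified envelope and of late differentiation were mostly lower in the RIP after miR-634. Of 21 such genes, 11 were measured, and limma called 0 higher and 9 lower in the fold change of enrichment, against 43.2% lower among all genes. Their median was -0.41 relative to that of all genes. At an unadjusted p under 0.05 the list again had 0 higher and 9 lower, a threshold at which all genes were not counted. SPRR2D, SPRR1B, CNFN and IVL, which encode proteins of the envelope, fell by 1.26, 1.08, 1.04 and 1.02. The value of SPRR2D rested on input arrays of miR-NC cells that differed widely (-2.72 and -1.71), and without replicate 1 of these it was -0.75 (adjusted p = 0.000905). Its call was lost without any of the other groups' 6 arrays (-1.29 to -1.23), and so was its RIP call (-0.90 to -0.83). The call of S100A7 was lost without any of 4 arrays (-0.55 to -0.48), namely miR-NC input replicate 2, miR-NC RIP replicate 1, miR-634 input replicate 1 and miR-634 RIP replicate 2. All 11 fell in the RIP, against 46.5% of all genes, and 5 fell in the input, against 12.1%. In the input S100A8, S100A7 and S100A9 decreased by 0.84, 0.82 and 0.73. The input call of S100A7 was lost without miR-NC input replicate 1 (-0.75), and that of CNFN without any of the 4 input arrays (-0.35 to -0.27). With spike-in scaling the direction was lost, with 4 genes higher and 0 lower in the fold change of enrichment and 1 higher and 2 lower in the RIP, although the distance of the list from the median gene was the same. Of all 10959 genes, that scaling called 7347 higher and 193 lower in the fold change of enrichment, and 7407 and 379 in the RIP. LORICRIN, KRTDAP and CDSN were not well above background on any array.

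Among transcription factors and other regulators of keratinocytes, 3 of 18 measured genes had a higher and 11 a lower fold change of enrichment, with a median of -0.34 relative to that of all genes. KDF1, a keratinocyte differentiation factor, rose by 1.52, with levels of 1.05 and 1.05 in the miR-NC RIP and 2.47 and 2.42 in the miR-634 RIP. KDF1 is in the list of targets that the study chose on these arrays, so its direction is not independent evidence. GRHL3 and JUNB fell by 1.29 and 0.94. In the input, ZNF750, GRHL3 and OVOL1 rose by 0.80, 0.76 and 0.74. Of 7 measured genes that bind or turn over keratin filaments, 1 was higher and 3 lower (KRTCAP3 0.54, SFN -0.95, TCHP -0.62 and TRADD -0.59). The call of TCHP was lost without any of 6 arrays (-0.69 to -0.41), all but miR-NC RIP replicate 1 and miR-634 RIP replicate 2. Of 10 measured genes of other intermediate filaments, 2 were higher and 3 lower. VIM, the intermediate filament protein of mesenchymal cells, fell by 1.08, and PRPH fell by 1.15, whereas LMNB2 rose by 0.66. PRPH was dim, with levels of -3.86 and -4.22 in the miR-NC RIP and -5.25 and -5.36 in the miR-634 RIP. With spike-in scaling, no gene of these 3 lists was lower, against 193 of all 10959 genes.

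**Figure D5:**
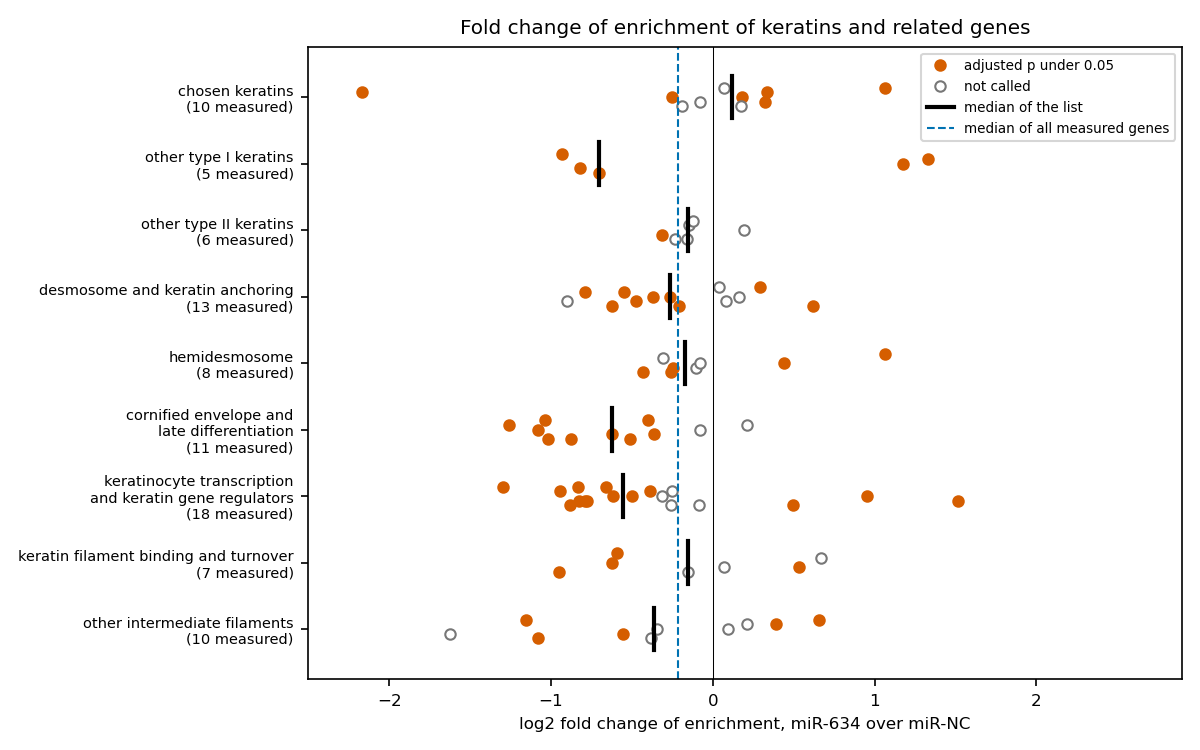
Log2 fold change of enrichment (horizontal axis) of the 10 keratins and of each measured gene of 8 related lists, with filled points for an adjusted p under 0.05, short black bars for list medians and a dashed line at the median of all genes (-0.22). The cornified envelope list has its median at -0.62, and the 10 keratins have theirs at 0.12.

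Epithelial markers were present in these cells. All 7 squamous epithelial markers and all 6 simple epithelial markers were measured. CDH1, the adhesion protein E-cadherin, decreased by 1.02 in the input (adjusted p = 0.000223, limma) while its fold change of enrichment rose by 1.40. EPCAM, a marker of simple epithelia, rose by 1.52, whereas DSG3, a desmosomal cadherin on the squamous list, fell by 0.37. The RIP change of DSG3 was -0.07 and not called (adjusted p = 0.312), and its input rose by 0.30 (adjusted p = 0.0132). That input call was lost without any of the 4 input arrays (0.28 to 0.33). Of the 7 squamous markers 2 were higher (KRT14 and CDH1) and 1 lower in the fold change of enrichment. Of the 6 simple markers 2 were higher (EPCAM and CDH1) and 2 lower (KRT8 and KRT18), with CDH1 on both lists, against 28.1% and 43.2% of all genes. Of 6 fibroblast and 4 melanocyte markers 0 were measured, and of 6 immune and endothelial markers 2 were (CDH5 and VWF). COL1A2, COL3A1, CD3E, PECAM1, MLANA and TYR were not well above background on any array.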

How the data were processed

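For each of 8 one-color Agilent 8 × 60K arrays, the authors deposited the intensity of every spot from Feature Extraction (version 12.0.1.1 per the file headers, 9.1 per the labels), corrected for background within the array. The authors also deposited processed log2 values from GeneSpring, which were used as an alternative only. They match the log2 intensity scaled to each array's 75th percentile of all probes, with every probe set to a median of 0 across arrays. The columns' medians ran from -0.44 to 0.87.

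Control and outlier spots were left out, spots of a probe were averaged, and the log2 intensity was shifted by the array's 75th percentile over the 16808 of 58201 probes (28.9%) well above background on all 8 arrays. No spot was saturated. RefSeq accessions were given for 33080 probes, and the GRCh38.p14 gene table of RefSeq supplied the symbol of 31104. The array was annotated on hg19, so no gene coordinates are given. The brightest measured probe stood for a gene. All 5 comparisons used limma 3.58.1 in R 4.3.3 (lmFit on 4 group means, eBayes), with Benjamini-Hochberg adjustment over 10959 genes and a threshold of 0.05. The scripts were tested on simulated data. Plots used Python 3.11.15, pandas 2.3.3 and matplotlib 3.10.9.

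The 10 keratins and the related gene lists were chosen with earlier results of these data known. Named genes were all 10 keratins with each probe, up to 4 genes of a list by the size of their called fold change of enrichment and then of their input change, any gene of a list with at most 5 measured genes, the 3 genes most correlated with KRT5 and with KRT8, and SLC1A5. KRT6A and KRT16 as a correlated pair, KRT1 and the undetected or partly detected genes were picked with their values in view.

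The alternatives were normexp background correction (offset 50, on the median spot signal) with quantile normalization, quantile normalization alone, the authors' values, the percentile over all probes, median scaling, spike-in scaling (7 of 10 spike-in probes), filtering by input arrays alone, omitting the filter, averaging a gene's probes, a fit of every probe, an intensity trend, a replicate block and each array left out in turn. Precision is limited by having 2 arrays per group. Animal, protein and RIP-PCR data were not analyzed here.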

Additional observations from a re-analysis of the deposited data

Results flagged for a closer look

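KRT18, the type I keratin of simple epithelia, was marked because its RIP/input differed in direction between the 2 kinds of cells. The log2 enrichment was 1.47 with miR-NC and -0.70 with miR-634, each called by limma, and the difference of -2.17 between them was itself called (adjusted p = 1.24e-06). With spike-in scaling both enrichments were below 0 (-1.07 and -2.15), and the difference was -1.08. The second probe of KRT18 gave 1.09 and -0.83. By its brightest probe, none of the other 9 keratins was called in opposite directions in the 2 kinds of cells. The dimmer KRT14 probe A_21_P0011517 was called so by limma. Its enrichment was -0.38 in miR-NC cells (adjusted p = 0.00202) and 0.86 in miR-634 cells (adjusted p = 2.82e-05). The 68 KRT18 pseudogenes of the RefSeq table may share its probes, and their part in the result was not tested.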

How the results depend on the processing

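With the values as reported, the keratins called higher and lower were 4 and 2 for the fold change of enrichment, 3 and 0 for the input change, 5 and 5 for the RIP change, 3 and 4 for the miR-NC enrichment, and 4 and 4 for the miR-634 enrichment. The rise of KRT16, the rise of KRT6B and the fall of KRT18 in the fold change of enrichment kept their direction and call in all 20 alternatives. Normexp with quantile normalization gave 2 higher for the fold change of enrichment, where KRT14 had an adjusted p of 0.0509, 1 lower for the input and 3 lower for the RIP. Quantile normalization alone gave 2 higher in the miR-634 enrichment. Both the authors' values and the percentile over all probes gave 1 lower for the fold change of enrichment, 1 lower for the RIP and 2 lower for the miR-634 enrichment, and median scaling gave 1 and 2 lower for the fold change and the miR-634 enrichment. Without a filter on dim probes, 1 was lower in the fold change of enrichment, 0 were higher in the input and 2 were higher in the miR-634 enrichment. The intensity trend gave 2 lower in the input.

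Spike-in scaling gave 9 higher and 1 lower for both the fold change of enrichment and the RIP change, 0 higher and 1 lower for the input, and 0 higher and 10 lower for both enrichments. It turned the fold change of enrichment of KRT5, KRT7 and KRT8 to 0.89, 1.0 and 0.83, and the RIP change of KRT5, KRT7, KRT8 and KRT19 to 0.65, 0.65, 0.62 and 0.58. It turned the input change of KRT14, KRT17, KRT8 and KRT18 to -0.0697, -0.0972, -0.208 and -0.110. Over all genes, this scaling called 7347 higher and 193 lower in the fold change of enrichment, compared with 3079 and 4730 as reported and 3289 and 3665 with the authors' values. Spike-in scaling called 7407 genes higher and 379 lower in the RIP change, and 34 and 856 in the input. For the miR-NC enrichment it called 63 higher and 10746 lower, and for the miR-634 enrichment 712 and 9198, of 10959 genes. For the RIP change the authors' values gave 4045 higher and 3723 lower, compared with 3385 and 5098. Spike-in scaling shifts every gene by the same amount within a contrast, and why the 2 scales differ was not tested.

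Some values near 0 changed sign. The input change of KRT5 was 0.0205 with normexp, 0.0193 with quantile normalization, 0.0343 with the authors' values and 0.0356 with the percentile over all probes. The fold change of enrichment of KRT7 was 0.0387 and 0.0382 with the latter 2. The input change of KRT8 was -0.0260 with the mean of its probes. When each array in turn was left out, KRT19 ran in its fold change of enrichment from -0.0896 (without miR-NC input replicate 1) to 0.231, and the input change of KRT8 from -0.0021 (without the same array) to 0.0221. In these fits, the fold change of enrichment had 3 to 5 higher and 1 to 3 lower keratins, the input 0 to 3 higher and 0 to 1 lower, the RIP 5 higher and 4 to 5 lower, the miR-NC enrichment 3 higher and 3 to 4 lower, and the miR-634 enrichment 2 to 5 higher and 3 to 5 lower. A lone array was then assumed to vary like the other groups.

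Arrays of the same number shared only that number, since their deviations correlated between -0.0376 and 0.0839. With the replicate block, KRT16 in the input (0.26, adjusted p = 0.0742) and KRT19 in the RIP (-0.29, adjusted p = 0.0588) were no longer called, and 1083 genes were higher and 1178 lower in the input, compared with 1273 and 1329. The block left the estimates unchanged and altered only the estimated spread and the p values that follow from it. A cause beyond that was not tested. KRT19, with levels below -2.5 on each array, has the least precise values of the 10.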
